A study of Mus musculus with 4 samples.

Results

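The genes examined were the kinesins, the centromere proteins and the kinases, cyclins and checkpoint proteins of mitosis. They were taken by name from the deposited gene table: symbols that start with Kif and a digit or c, or with Cenp and a letter, together with the Aurora kinases, the Bub genes, cyclins B1 and B2, and 11 genes named singly, among them Plk1, Cdc20 and Top2a. The rule found 61 genes of 10716, of which 26 were kinesins and 17 had Cenp names. In the mouse annotation 81 gene names match the rule, and the 61 are those analysed here. The rule itself reads only gene names, but it was set with earlier results of these data known.

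RNA was sequenced from C57BL/6 fetal liver cells of embryonic day 14.5 that had been sorted for YFP, the signal of a reporter at the R26 locus, and that the protocol describes as erythroid. The 2 knockout-labelled libraries (replicates 1 and 2) came from mice described as knockouts of ADAR1, the double-stranded RNA editing enzyme encoded by Adar, through a Cre recombinase driven by the erythropoietin receptor gene Epor. Their genotype is given as Epor-Adar / +, and whether 1 or both Adar alleles were deleted is not stated. The 2 controls (replicates 3 and 8) are labelled wild type. Whether the controls carry Epor-Cre is not stated, and neither is whether each library came from a single embryo. The p-values therefore measure only the spread between these libraries, which may be technical.

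Mitosis separates the copied chromosomes on a spindle of microtubules. CENP proteins mark the centromere of each chromosome and build the kinetochore there, to which the NDC80 complex attaches microtubules. Kinesins are motors that slide, shorten or travel along microtubules, and only some of them work in the spindle. Cyclin B with CDK1, the Aurora kinases and PLK1 drive entry into mitosis, and the checkpoint proteins hold back CDC20 until all kinetochores are attached. Erythroid progenitors of the fetal liver divide rapidly before they lose their nucleus, and many of these genes are transcribed mainly in G2 and M phase, through promoters with CCAAT boxes and a cell cycle homology element.

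Promoters are shown for 4 genes whose levels lay below both controls in both knockout-labelled libraries (the cyclin gene Ccnb1, the kinase genes Plk1 and Aurka, and the checkpoint target gene Cdc20) and for the kinesin gene Kif2a, whose levels lay above. These 5 were chosen after their values were seen. Each run holds 250 bases before and 50 after the start of transcription, from RefSeq on GRCm38.p6, a later build than those in the submitters' processing notes. The positions are chr13:100786437-100786736 (minus strand), chr7:122159185-122159484 (plus strand), chr4:118437294-118437593 (minus strand), chr2:172370521-172370820 (minus strand) and chr13:107022306-107022605 (minus strand). Capitals mark CCAAT and TTTGAA or TTCGAA, searched on both strands.
Ccnb1: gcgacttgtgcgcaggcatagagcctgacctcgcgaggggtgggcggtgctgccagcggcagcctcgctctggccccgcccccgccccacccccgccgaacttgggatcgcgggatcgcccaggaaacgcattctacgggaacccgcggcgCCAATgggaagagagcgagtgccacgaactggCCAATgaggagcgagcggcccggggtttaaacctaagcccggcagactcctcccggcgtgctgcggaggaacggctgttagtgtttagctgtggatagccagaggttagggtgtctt
Plk1: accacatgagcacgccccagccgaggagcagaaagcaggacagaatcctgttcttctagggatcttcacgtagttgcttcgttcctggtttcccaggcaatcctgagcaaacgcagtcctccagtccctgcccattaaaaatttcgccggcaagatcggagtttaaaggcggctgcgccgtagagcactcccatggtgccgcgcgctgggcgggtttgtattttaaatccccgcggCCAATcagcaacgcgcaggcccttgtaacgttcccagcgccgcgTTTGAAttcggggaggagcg
Cdc20: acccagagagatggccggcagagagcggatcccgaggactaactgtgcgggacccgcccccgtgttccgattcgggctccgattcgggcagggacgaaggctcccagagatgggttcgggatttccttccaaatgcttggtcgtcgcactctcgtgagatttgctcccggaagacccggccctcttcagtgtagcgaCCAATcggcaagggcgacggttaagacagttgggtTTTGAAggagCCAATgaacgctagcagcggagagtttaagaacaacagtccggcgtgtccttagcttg
Aurka: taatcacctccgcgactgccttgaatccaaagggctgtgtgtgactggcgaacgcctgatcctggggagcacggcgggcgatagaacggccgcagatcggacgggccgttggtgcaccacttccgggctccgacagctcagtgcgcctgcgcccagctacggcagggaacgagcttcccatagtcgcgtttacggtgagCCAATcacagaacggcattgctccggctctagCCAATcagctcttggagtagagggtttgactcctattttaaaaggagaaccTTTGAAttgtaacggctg
Kif2a: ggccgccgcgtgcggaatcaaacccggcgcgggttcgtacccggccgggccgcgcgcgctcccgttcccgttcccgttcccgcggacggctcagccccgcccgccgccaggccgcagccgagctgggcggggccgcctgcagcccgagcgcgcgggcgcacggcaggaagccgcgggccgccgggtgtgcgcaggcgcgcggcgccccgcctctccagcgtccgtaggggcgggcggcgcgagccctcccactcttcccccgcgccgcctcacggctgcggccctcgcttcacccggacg
The Ccnb1 promoter held CCAAT at -99 and -67. In Plk1 the matches were CCAAT at -14 and TTTGAA at 31, in Cdc20 CCAAT at -53 and -8 and TTTGAA at -18, and in Aurka CCAAT at -51 and -19 and TTTGAA at 33, counted from the first transcribed base as 1. Kif2a had no match, which says only that these letters are not in this window.

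A promoter was found for 53 of the 61 genes, taking the first one listed for each symbol. CCAAT was present in 33 (62.3%) and TTTGAA or TTCGAA in 27 (50.9%), and 23 (43.4%) held both. Over all 27025 promoters of the same length the shares were 37.9%, 19.4% and 7.7%, and over the 7286 genes of the count table with a promoter they were 40%, 13.7% and 6.07%. All 27 promoters with TTTGAA or TTCGAA belonged to genes outside the transport and other kinesins, where they made up 60% of 45. None of the 8 transport kinesin promoters held TTTGAA or TTCGAA, and 3 (37.5%) held CCAAT. Of the 17 promoters of non-transport genes that lay below both controls in both knockout-labelled libraries, 11 (64.7%) held both motifs, against 12 of the other 28 (42.9%). For each motif by itself the shares were closer: 70.6% against 64.3% for CCAAT, and 70.6% against 53.6% for TTTGAA or TTCGAA. This split was not planned and follows the values in these libraries, some of which lay only just below. The differences rest on few genes and were not tested. A match is a description of the letters and not a shown binding site.

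Total counts ran from 28356401 to 44016809 per library. Levels are CPM, counts divided by the TMM-scaled library size and given per 1e6 reads. Knockout-labelled replicates 1 and 2 had 67.1 and 102 CPM of Adar itself, and the controls 50.9 and 46.9, so its count does not bear out the labels. Exons outside the deleted stretch are counted too, so this checks the labels only in part. The Y-linked gene Eif2s3y had 106 CPM in knockout-labelled replicate 1 and 72.2 in control replicate 3, both labelled female. It had 0 counts in knockout-labelled replicate 2, labelled male, where 0 allows up to 0.0778 CPM (3 counts, counting error only). Knockout-labelled replicate 1 stood apart: in 82.7% of all genes its distance to the controls' mean exceeded that of replicate 2, and so it did in 53 of the 61 (86.9%). All 9 erythroid markers were measured, with sums of 69496 and 69699 CPM against 98854 and 65335 in the controls, and Epor and Gata1 had at least 131 CPM in every library. Markers of neutrophils and granulocytes (8 of 10 measured) summed to 342 CPM in knockout-labelled replicate 1 and to 39.9 in replicate 2, against 44.5 and 48.5 in the controls. Those of macrophages (9 of 10) summed to 8.25 and 19.3 against 60.3 and 28.5, those of hepatoblasts (8 of 10) to 60.9 and 70.6 against 127 and 52.0, and those of megakaryocytes (7 of 8) to 181 and 111 against 64.4 and 93.8. Stem and progenitor markers (2 of 6) summed to 77.4 and 39.1 against 37.7 and 34.1, endothelial markers (3 of 4) to 20.8 and 17.5 against 8.05 and 6.72, and the lymphoid list held only Ptprc, with 9.56 and 1.94 against 2.03 and 1.54. The part of other cells in the results below was not tested. In bulk RNA, fewer dividing cells and less RNA per dividing cell cannot be told apart.

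The mitotic genes were well covered in all 4 libraries. This is partly set by the deposited table, in which every gene exceeded 1 CPM, before TMM scaling, in at least 2 libraries. All 49 outside the transport kinesins had at least 10 CPM in every library and at least 454 counts, and none of the 61 fell below 1 CPM anywhere. The lowest count was 28, for Kif7 in control replicate 3. Top2a, the topoisomerase that untangles sister chromosomes, reached 66347 counts in control replicate 8. Per kilobase of annotated exon, which allows genes to be compared, the highest control mean was that of the cyclin gene Ccnb2 (200 CPM per kb), followed by Top2a (163), Incenp (125), the bipolar spindle motor Kif11 (117), Cdc20 (116) and the chromosome-arm motor Kif22 (108). The control values of Kif11 (126 and 109 per kb) overlapped those of Incenp (129.8 and 121) and spanned those of Cdc20 (115 and 117), so its place among them is not settled. Those of Incenp and Cdc20 did not overlap.

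The NDC80 complex genes Nuf2, Spc24, Ndc80 and Spc25 had similar levels per length in the controls. Their control means were 61.8, 52.7, 45.5 and 41.8 CPM per kb. The inner centromere genes, which do not form 1 complex, ran from 3.0 (Cenpo, a subunit of the constitutive centromere network) to 68.4 (Cenpa, the centromeric histone variant). Cenpo has the longest annotated exons of this group (7263 bases). It also shares exon bases with Adcy3 and 2410017P09Rik, so its low place is uncertain. The transport kinesins lay between 0.252 (Kif7, of the Hedgehog pathway at the primary cilium) and 3.35 (Kif3b, of the kinesin-2 motor) except for Kif5b, a kinesin-1 heavy chain that carries cargo along microtubules, at 23.3. The exon length counts every annotated exon, so genes with many isoforms or long untranslated parts are set lower.

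**Figure D1:**
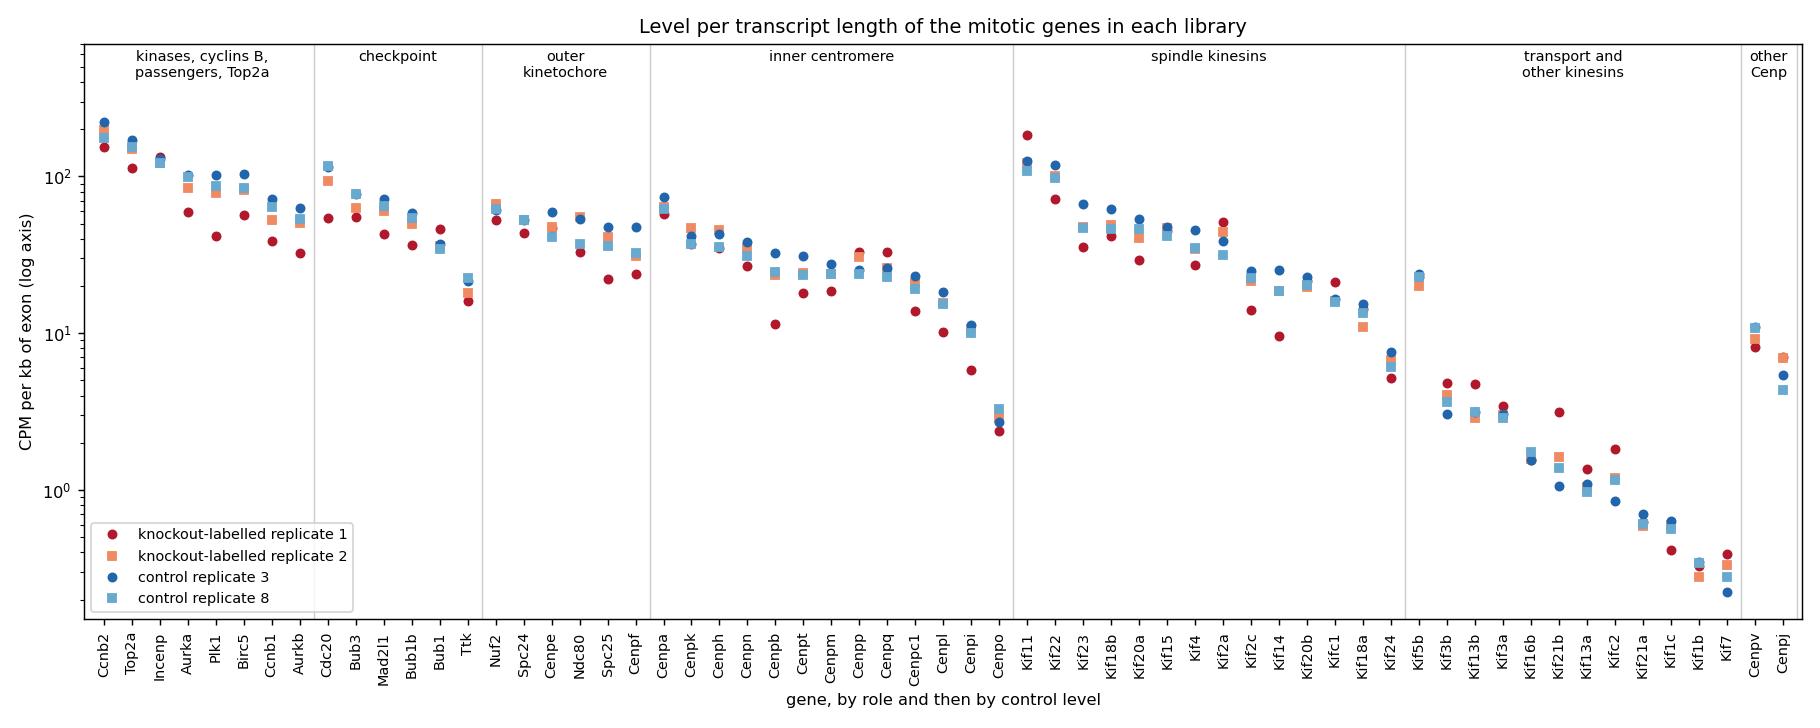
CPM per kb of annotated exon (log axis) for the 61 genes, grouped by role and ordered by control level, with 1 point for each library. Ccnb2, Cdc20 and Kif11 top their groups and the transport kinesins other than Kif5b lie under 5 CPM per kb.

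No mitotic gene passed the threshold. The comparison of knockout-labelled with control libraries, by edgeR's quasi-likelihood test with p-values adjusted by Benjamini-Hochberg across the 10716 genes, called 0 of the 61 at an adjusted p below 0.05, in either direction. Over all genes it called 0.103% as higher (11 genes) and 0% as lower. The smallest adjusted p of the 61 was 0.419, and in the authors' deposited table the smallest was 0.442, also with 0 past 0.05. At an unadjusted p below 0.05 edgeR gave 1 gene higher, Kif21b, and 0 lower, where the shares of all genes were 9.82% and 2.08%. DESeq2 called 0 of the 61, with 3.29% of all genes called higher and 0.196% lower, and limma-voom called 0 (0.0747% and 0%). The likelihood ratio test of edgeR called 0 (3.09% and 0.168%). Other settings also gave 0 of the 61: without library scaling 0.793% of all genes passed as higher and 0.0187% as lower, with the stricter filter 0.142% and 0%, and with robust=FALSE or legacy=FALSE 0.14% and 0%. At an unadjusted p below 0.05 DESeq2 gave 1 higher and 2 lower and limma-voom 1 and 1. The shares of all genes at this bound are not given for these 2 methods, so the counts are not read as a result. A p that misses the threshold with 2 libraries a group does not show that the levels were equal: standard errors of the log2 fold changes ran from 0.18 (Ttk) to 0.38 (Kif7).

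Most of the 61 nevertheless had lower values in the knockout-labelled libraries. The log2 fold change was below 0 for 43 (70.5%), against 50% of all genes, with a median of -0.19 against 0.00 and a range from -0.71 (Cenpb) to 0.96 (Kif21b). Both knockout-labelled libraries lay below both controls for 21 genes (34.4%), where the background share was 26.7%, and above both for 8 (13.1%), where it was 27.4%. The lower count is thus not far above the background. Knockout-labelled replicate 1 was above both controls for 15 genes and replicate 2 for 12, where the background shares were 44.3% and 34.7%. Replicate 1 was the lowest of the 4 libraries for 39 of the 61 (63.9%, background 41.3%). Control replicate 3 was the highest for 38 of the 61, where it was so for 2810 of all 10716 genes. The median difference from the control mean was -0.35 on the log2 scale in knockout-labelled replicate 1 and -0.09 in replicate 2. Control replicate 3 exceeded control replicate 8 by a median of 0.18, where the median over all genes was -0.02. The summed CPM of the 61 came to 7826 in replicate 1, 9006 in replicate 2, 10493 in control replicate 3 and 8942 in control replicate 8. Replicate 2 lay between the controls, and the groups overlapped in this sum.

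**Figure D2:**
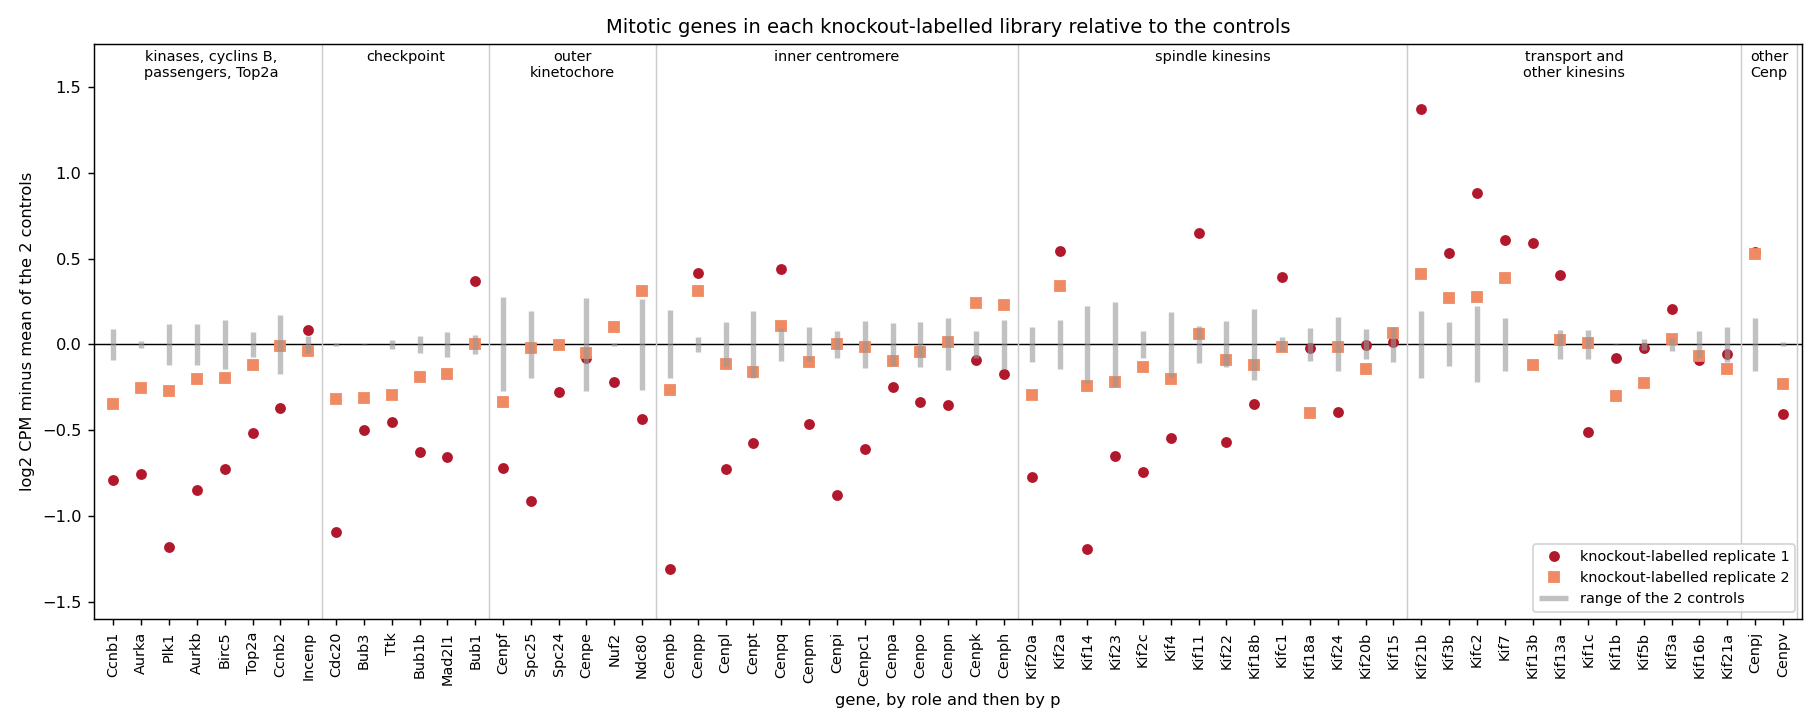
Log2 CPM of each knockout-labelled library minus the mean of the 2 controls, for the 61 genes by role, with a grey bar for the range of the 2 controls. Circles of replicate 1 lie below squares of replicate 2 for most genes of the first 5 groups, and genes from Kif21b to Kif7 lie above 0 in both libraries.

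The kinases, cyclins B, passenger proteins and Top2a, 8 genes, had the lowest median of all role groups, -0.46, and 6 of the 8 (75%) lay below both controls in both knockout-labelled libraries, against 26.7% of all genes. Ccnb1, the cyclin that activates CDK1 for mitosis, had 165 CPM in replicate 1 and 224 in replicate 2 of the knockout-labelled group, against 303 in control replicate 3 and 268 in control replicate 8. Values below keep this order. Both knockout-labelled values lay under both controls, with means of 194 ± 42 and 285 ± 24.8 (SD, n = 2 each). This gave a log2 fold change of -0.55 (SE 0.23, edgeR adjusted p = 0.427). The other B-type cyclin, Ccnb2, had 236 and 305 against 345 and 272, so its groups overlapped (log2 fold change -0.19).

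Aurka, the Aurora kinase of the spindle poles, had 150 and 212 CPM against 257 and 250 (log2 fold change -0.48, SE 0.23, edgeR adjusted p = 0.433). Plk1, a kinase of mitotic entry and spindle assembly, had 91.9 and 172 against 226 and 192 (-0.66, SE 0.32, edgeR adjusted p = 0.434). In both genes the groups did not overlap, and replicate 1 was farther from the controls than replicate 2: for Plk1 the 2 libraries were -1.18 and -0.27 from the control mean on the log2 scale.

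The chromosomal passenger complex joins the kinase AURKB with INCENP, survivin (Birc5) and borealin (Cdca8, not among the 61). Its genes did not share 1 pattern. Aurkb had 95.2 and 149 CPM against 186 and 158, and Birc5 194 and 279 against 354 and 290, both without overlap between groups. Incenp, the scaffold, had 429 and 393 against 419 and 391, with a log2 fold change of 0.02 (SE 0.20) that turned negative without library scaling. Cdca8 had 211 and 230 against 277 and 257 (-0.27). Whether the subunits differ in their change was not tested. Top2a had 1030 and 1354 against 1549 and 1402 (-0.31, SE 0.26).

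Of the 6 checkpoint genes 5 (83.3%, against 26.7% of all genes) lay below both controls in both knockout-labelled libraries, with a group median of -0.39. Cdc20, the activator of the anaphase-promoting complex that the checkpoint restrains, had 101 and 174 CPM against 216 and 218. The controls differed by little, at a mean of 217 ± 1.54 against 138 ± 51 (SD, n = 2 each). This gave a log2 fold change of -0.65 (SE 0.29, edgeR adjusted p = 0.433). Bub3, which brings the BUB kinases to the kinetochore, had 113 and 128 against 160 and 159 (-0.40, SE 0.18). Ttk, the kinase MPS1 that starts the checkpoint signal, had 46.8 and 52.1 against 62.7 and 65.2 (-0.37, SE 0.18). In these 2 genes the knockout-labelled libraries were closer to each other than in Cdc20. Bub1b and Mad2l1, both of the checkpoint complex that binds CDC20, had -0.39 each. Bub1 was the exception, with 202 and 156 against 162 and 150 (0.20): replicate 1 was high and replicate 2 lay between the controls.

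The exons of Cdc20 overlap those of Elovl1 on the opposite strand. In all, 13 of the 61 genes share exon bases with another annotated gene, Kif2a, Kif20a, Kif4, Kif18a, Cenpb, Cenpq and Cenpt among them. How strand and shared reads were handled in counting is not given in the sources used here, so their counts are uncertain. Kifc1 has near-identical copies in the mouse genome, and the annotation lists pseudogenes of Kif4 and Kif22, so reads of these 3 could also be split.

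**Figure D3:**
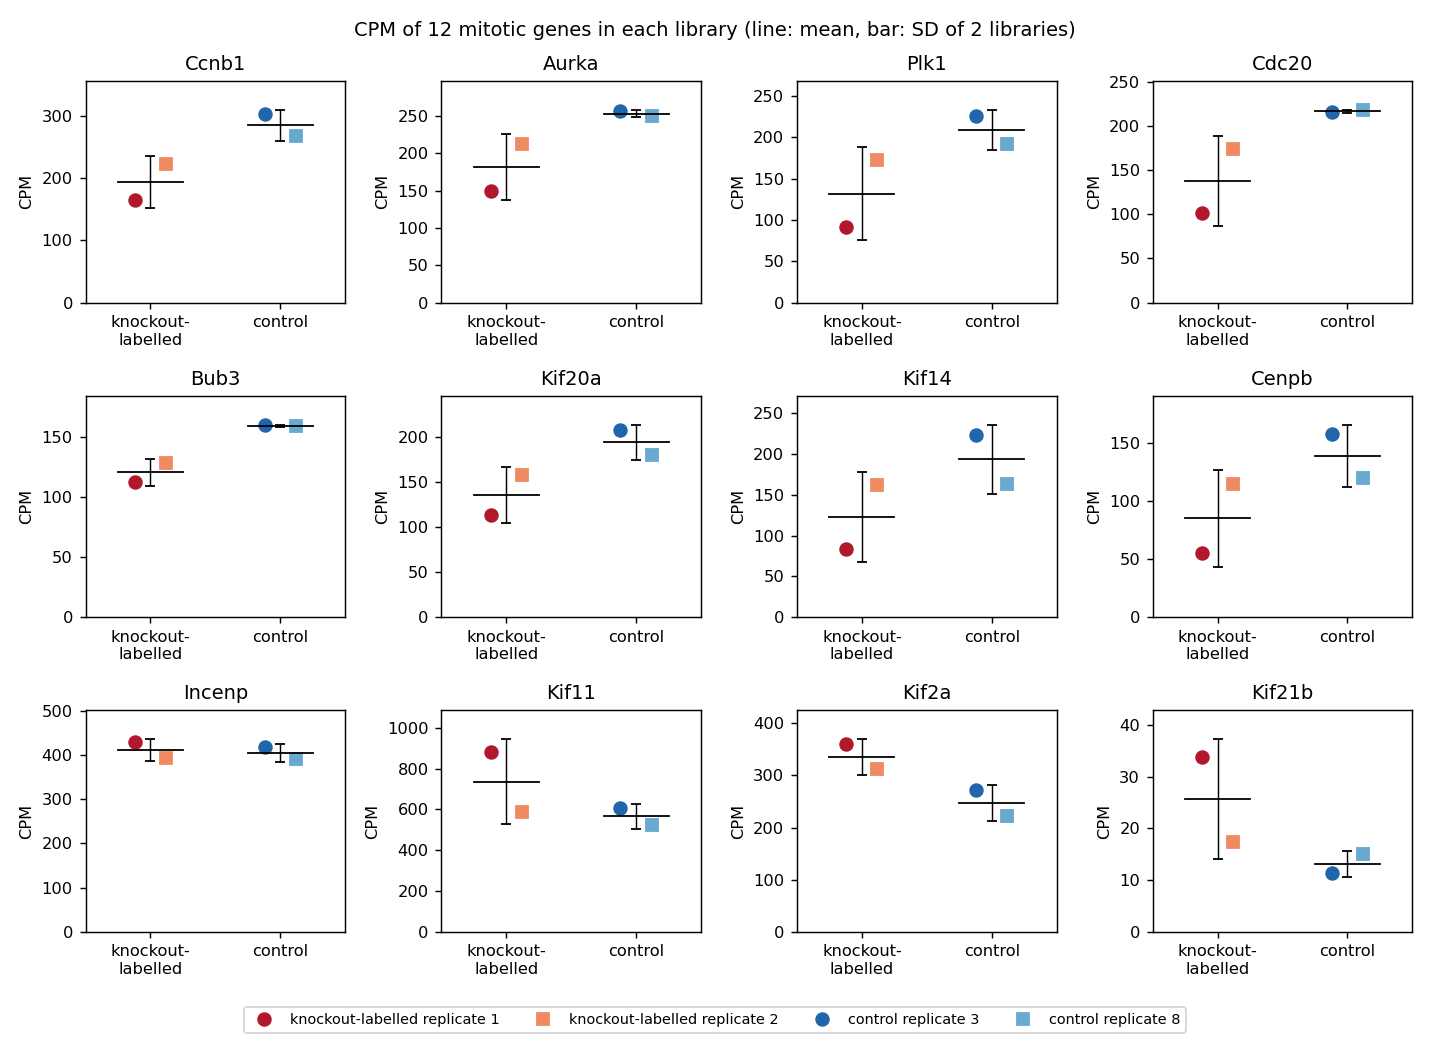
CPM in each library for 12 of the genes, with lines for group means and bars for the SD of 2 libraries. Knockout-labelled points lie below the controls from Ccnb1 to Cenpb, overlap them in Incenp and Kif11, and lie above in Kif2a and Kif21b.

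In the outer kinetochore, 6 genes, all log2 fold changes were below 0 but the median was -0.11, and 2 of the 6 (33.3%) lay below both controls in both libraries, a share near the 26.7% of all genes. Cenpf, a large coiled-coil protein of the fibrous corona, had 270 and 354 CPM against 539 and 368 (log2 fold change -0.54, SE 0.28, edgeR adjusted p = 0.439). Control replicate 3 was far above control replicate 8, and replicate 2 lay close under the latter. Spc24 also did not overlap, but by a margin too small to read: its knockout-labelled replicate 2 and its controls were at 71.5, 71.6 and 71.5. Of the NDC80 complex, Spc25 had 70.2 and 130 against 151 and 116, Ndc80 had 72.9 and 122 against 119 and 81.9, and Nuf2 had 136 and 170 against 157 and 159. In these 3 genes replicate 1 was the lowest library while replicate 2 lay within or above the controls. Cenpe, the kinesin motor that brings chromosomes to the spindle equator, had 365 and 373 against 466 and 320 (-0.09).

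The inner centromere genes, 13 in number, had a median of -0.19, and knockout-labelled replicate 1 lay below both controls for 11 of them, while replicate 2 did so for 2. Over all genes these shares were 44.1% and 35.3%. Both libraries lay below for 2 of the 13 and above for 2 (15.4% each), under the shares of all genes (26.7% and 27.4%). Cenpb, which binds a sequence box in centromeric repeats, had 55.7 and 115 CPM against 158 and 120, the lowest log2 fold change of the 61 (-0.71, SE 0.37, edgeR adjusted p = 0.439). Replicate 1 was less than the others by far, and replicate 2 lay only just under control replicate 8. Cenpl, of the constitutive centromere network, had 51.1 and 78.3 against 92.4 and 77.4, and Cenpt, which links the network to NDC80, had 32.1 and 42.8 against 54.7 and 41.7. In both the groups overlapped.

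Cenpp and Cenpq, which encode partners in a single subcomplex of that network, had higher values without overlap. This did not hold for the whole subcomplex: Cenpo, another of its genes, had 17.2 and 21.0 CPM against 19.8 and 23.8 (-0.19), with overlap. Cenpp had 41.7 and 38.8 CPM against 32.2 and 30.3 (log2 fold change 0.37, SE 0.19, edgeR adjusted p = 0.439). Cenpq had 85.6 and 68.1 against 67.4 and 59.1 (0.28, SE 0.20), where replicate 2 was close to control replicate 3. Cenpa had 144 and 160 against 186 and 156 (-0.17, SE 0.20), and Cenpk 69.3 and 87.5 against 78.0 and 70.1 (0.08). Cenpj is a centriole assembly protein despite its name. It had 30.6 and 30.3 against 23.5 and 18.9 (0.53, SE 0.22, edgeR adjusted p = 0.425), with replicates 1 and 2 at the same distance from the control mean (0.54 and 0.53). Cenpv had 14.8 and 16.7 against 19.8 and 19.4 (-0.31, SE 0.21).

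Spindle kinesins, 14 genes, had a median of -0.22, with 4 (28.6%) below and 1 (7.14%) above both controls in both knockout-labelled libraries. Of all genes 26.7% lay below, a like share, and 27.4% above. Kif20a, a motor of the central spindle and cytokinesis, had 114 and 158 CPM against 208 and 180 (log2 fold change -0.52, SE 0.23, edgeR adjusted p = 0.433). Kif14, a motor that recruits citron kinase for cytokinesis, had 83.8 and 162 against 223 and 164 (-0.66, SE 0.35), so that replicate 2 was just under control replicate 8. Kif23, of the centralspindlin complex, had 139 and 188 against 260 and 184 (-0.44), with overlap.

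Paralogous depolymerising motors went in opposite directions. Kif2c, which corrects faulty kinetochore attachments, had 61.9 and 94.4 CPM against 109 and 98.1 (log2 fold change -0.41, SE 0.25). Kif2a, which acts at spindle poles and also outside mitosis, had 360 and 312 against 272 and 223 (0.44, SE 0.21, edgeR adjusted p = 0.433), all knockout-labelled values being above all controls. The difference between the paralogs was not tested. Kif11, whose inhibition gives monopolar spindles, had 884 and 589 against 608 and 524 (0.38, SE 0.28): replicate 1 was high and replicate 2 lay between the controls. Kif15, which can stand in for Kif11, had 217 and 225 against 230 and 200 (0.04), and Kifc1, a minus-end motor, 72.2 and 54.6 against 56.6 and 53.6 (0.20).

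The transport and other kinesins, 12 genes, were the only role group of more than 2 genes with a median above 0 (0.17), and 4 of the 12 (33.3%, background 27.4%) lay above both controls in both knockout-labelled libraries. Kif21b, a motor that limits microtubule growth, had 33.9 and 17.4 CPM against 11.4 and 15. Replicate 1 was far above the other libraries and replicate 2 just above control replicate 8, giving a log2 fold change of 0.96 (SE 0.37, edgeR unadjusted p = 0.0405, adjusted p = 0.419). Kif3b had 27.2 and 22.7 against 17.2 and 20.6 (0.40, SE 0.23), and Kifc2 5.9 and 3.86 against 2.72 and 3.72 (0.59, SE 0.38). Kif5b, the most abundant of the group per length, had 170 and 147 against 176 and 168 (-0.12, SE 0.19). Kif1b had 5.74 and 4.92 against 6.09 and 6.06, the one gene of this group below both controls, and Kif1c had 2.94 and 4.22 against 4.46 and 3.97.

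**Figure D4:**
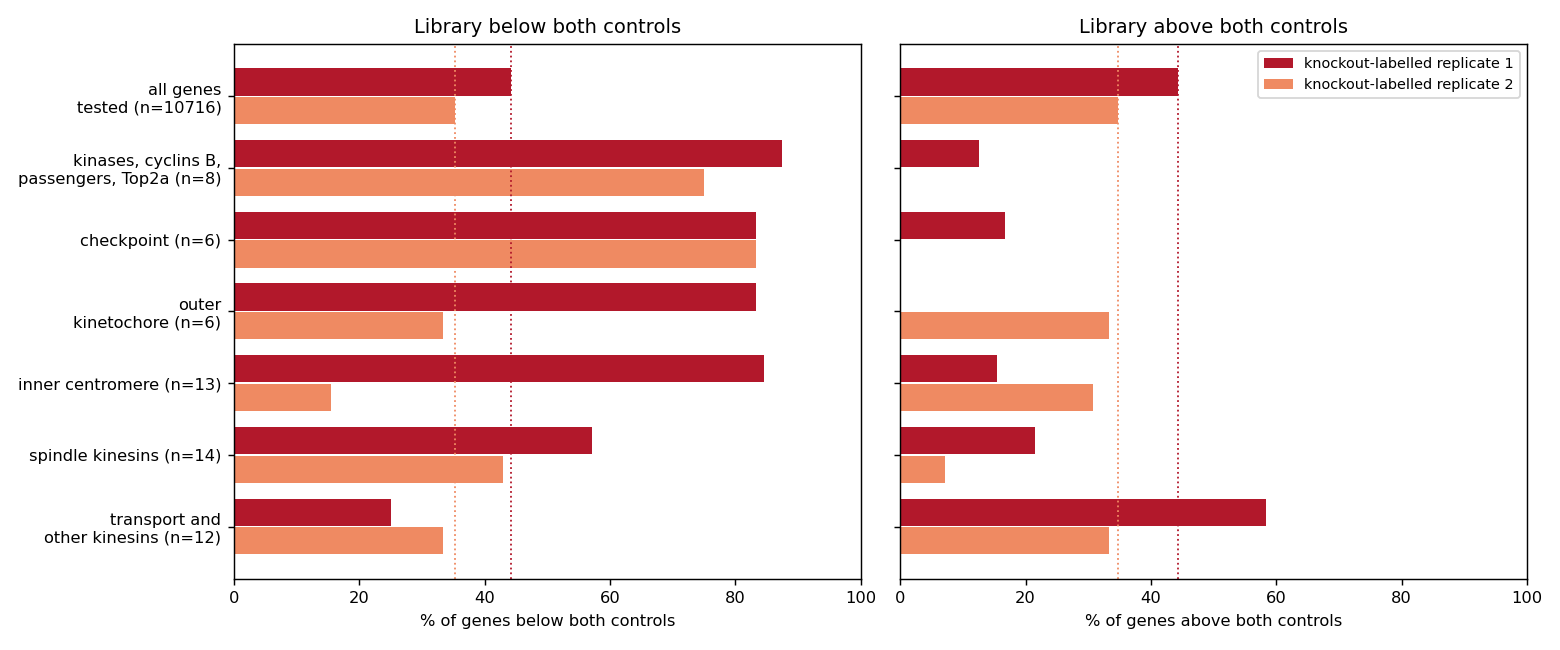
Share of genes of each role group for which a knockout-labelled library lay below (left) or above (right) both controls, with dotted lines at the shares over all 10716 genes. In the first 2 role groups both libraries are above the dotted lines on the left (at least 75%), whereas for the inner centromere genes replicate 1 reaches 84.6% and replicate 2 15.4%.

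Leaving out a library changed the calls. Without replicate 2, 16 of the 61 genes passed as lower and 2 as higher, where the shares of all genes were 15.3% and 17.3%. The 16 were Ccnb1, Aurka, Plk1, Aurkb, Birc5, Cdc20, Bub1b, Mad2l1, Spc25, Cenpb, Cenpc1, Cenpi, Cenpl, Kif14, Kif20a and Kif2c, and the 2 were Kif21b and Kif13b. In that fit the lone knockout-labelled library is assumed to vary like the controls. Cdc20 then had a log2 fold change of -1.10 (edgeR adjusted p = 0.00494), and Plk1 one of -1.19 (adjusted p = 0.00455). Without replicate 1, 0 of the 61 passed (1.29% of all genes higher and 0.0467% lower), with -0.32 for Cdc20 (adjusted p = 0.812) and -0.28 for Plk1 (adjusted p = 0.863). Counts at an unadjusted p below 0.05 in fits with 1 library left out have no share of all genes beside them. They are not read as a result about the 61. None of the 61 passed without control replicate 3 (0.373% and 0.00933% of all genes, and 0 higher and 0 lower of the 61 at an unadjusted p below 0.05) or without control replicate 8 (0.233% and 0.0187%, and 1 and 0 at an unadjusted p below 0.05) in edgeR. The median over the 61 was -0.10 without replicate 1 and -0.38 without replicate 2, and it was -0.13 without control replicate 3 and -0.32 without control replicate 8. The kinase and cyclin group and the checkpoint group kept medians between -0.20 and -0.75 in each of these 4 fits, while the inner centromere median was -0.02 without replicate 1.

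Other genes of mitosis were taken from 7 lists of the same processes, 167 genes in all. None passed in edgeR, and their median log2 fold change was -0.17. At an unadjusted p below 0.05, 4 were higher and 4 lower in edgeR, where the shares of all genes were 9.82% and 2.08%. Of the 167, 64 (38.3%) lay below both controls in both knockout-labelled libraries and 26 (15.6%) above, shares near those of the 61. Over all genes the shares were 26.7% below and 27.4% above. Plk2, a stress-induced polo-like kinase, was the 1 gene of the 167 called higher by DESeq2 (adjusted p = 0.000678), and likewise by the likelihood ratio test. Plk2 had 7.27 and 2.49 CPM against 0.58 and 0.655, under 1 CPM in both controls. Every gene of the table exceeded 1 CPM in at least 2 libraries, which Plk2 did only through the knockout-labelled ones. Its higher value there is therefore not independent of its place in the table. The median of the 167 was -0.22 without knockout-labelled replicate 2 and -0.07 without replicate 1, where those of all genes were -0.02 and -0.01.

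Mitotic entry kinases and phosphatases (27 genes, median -0.31) lay below both controls in both libraries for 14 (51.9%, against 26.7% of all genes). Cks1b, a subunit of CDK complexes, had 60.5 and 74.3 CPM against 101 and 90.8 (log2 fold change -0.51, SE 0.20). Cdk1 itself, named after its values were seen, had 147 and 210 against 276 and 235 (-0.52). Regulators of G2/M transcription (23 genes, median -0.37) included Rb1, the retinoblastoma repressor, with 596 and 502 against 356 and 338 (0.66, SE 0.22), and E2f4, which acts in the DREAM repressor, with 283 and 472 against 724 and 562 (-0.77, SE 0.32). Neither pair of groups overlapped, and neither gene passed.

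Spindle pole and microtubule genes (38, median -0.20) lay below in both libraries for 16 (42.1%, against 26.7% of all genes). The alpha-tubulin genes Tuba1b (40.6 and 78.7 CPM against 119 and 108, log2 fold change -0.93) and Tuba1a (8.68 and 4.95 against 3.23 and 3.87, 0.94) are close paralogs, so reads may be shared between them. Of 13 cytokinesis genes (median -0.08) 7 (53.8%) lay below, led by Pif1, a helicase placed on this list although its main known role is in DNA maintenance (26.3 and 59.2 against 92.1 and 78.2, -0.99), and Ect2, the exchange factor for RhoA (117 and 156 against 215 and 168, -0.49). In the anaphase-promoting complex list (19, median -0.18) 6 (31.6%, near the share of all genes) lay below, among them the separase gene Espl1 (157 and 211 against 282 and 243, -0.51) and Anapc11 (19.8 and 29.8 against 33.8 and 35.2, -0.47).

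Checkpoint and kinetochore partners (27, median -0.04) and cohesin with condensin (20, median 0.04) showed no shared lower level. Hjurp, the chaperone that places CENP-A at centromeres, had 826 and 410 CPM against 296 and 292, above both controls in both libraries (log2 fold change 1.07, SE 0.36, edgeR adjusted p = 0.39). Its cargo gene Cenpa had -0.17. Casc5, which encodes the kinetochore scaffold KNL1, had 146 and 194 against 248 and 220 (-0.46). In the cohesin list the acetyltransferase gene Esco2 (260 and 181 against 156 and 140, 0.58) and the ring subunit gene Smc3 (632 and 380 against 314 and 319, 0.68) lay above. In all, 6 of the 20 (30%) lay above in both libraries, near the 27.4% of all genes.

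On NCBIM37, a build named in the submitters' processing notes, Ccnb1 lies on chromosome 13 from 101548605 to 101556525, and Kif2a on the same chromosome from 107749076 to 107812206. Chromosome 2 holds Aurka from 172181690 to 172196035 and Cenpb from 131000918 to 131005803. Plk1 is on chromosome 7 (129302951 to 129313389), Cdc20 on chromosome 4 (118105506 to 118109957), Cenpf on chromosome 1 (191464478 to 191511965) and Kif21b on chromosome 1 (138027966 to 138074575). All 61 were found in the annotation under their Ensembl identifiers.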

How the data were processed

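The 61 genes and all gene lists were chosen with earlier results of these data known. Raw counts per gene were deposited by the authors as whole numbers for 10716 genes. Tools listed without roles in the submitters' processing notes include HTSeq, limma, edgeR, Bowtie2 (2.1.0.0), TopHat2 (2.0.8) and Trimmomatic (0.30). The p-values and adjusted p-values of the authors' deposited table are quoted as theirs.

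Groups followed the sample titles. Counts were fitted in edgeR 4.0.16 (R 4.3.3) with filterByExpr (0 genes removed), TMM scaling, estimateDisp and glmQLFit (robust=TRUE, legacy=TRUE, with 2 residual degrees of freedom). Tests were two-sided, adjusted over all genes, at 0.05. The standard error is the absolute log2 fold change over the square root of F. Per-library log2 differences used a prior count of 2. The common biological coefficient of variation was 25.6%. Alternatives included DESeq2 1.42.0 and limma-voom (limma 3.58.1). Every gene of the table exceeded 1 CPM, before TMM scaling, in at least 2 libraries. The code was tested on simulated data. Exon lengths and positions came from the GENCODE annotation on NCBIM37.

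By a rule, each role group gave up to 3 genes of smallest p per direction and the one of highest level per length, and each list gave 2. Bub1b, Mad2l1, Aurkb, Birc5, Top2a, Cenpe, Ndc80, Kif2c, Kif15, Kif7, Kif22, Cenpo, Cenpc1, Cenpi, Kif13b, Cdca8, Cdk1 and 4 further Cdkn genes were added after their values were seen, for their place in a complex or order. Counts behind the 61 genes ran from 28 to 66347 per library, so the spread of 2 libraries limits precision more than counting for most.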

Additional observations from a re-analysis of the deposited data

How the results depend on the processing

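No paired analysis was possible because the replicate numbers of the groups (1 and 2, 3 and 8) do not overlap. The 0 calls among the 61 genes held under RLE scaling, no library scaling, the stricter filter, DESeq2, the likelihood ratio test, limma-voom, robust=FALSE and legacy=FALSE. Leaving out the filter repeated the main fit, because the filter removed 0 genes. For Ccnb1, Aurka and Birc5 the limma-voom p-values equalled the authors' deposited ones, so these 2 are not counted as separate checks. With 1 library left out they ran from 0 to 2 higher and from 0 to 16 lower, and the median log2 fold change from -0.38 to -0.10. The 167 other mitotic genes gave 1 higher with the likelihood ratio test and 1 with DESeq2, and 0 to 12 higher and 0 to 40 lower with 1 library left out. Of all genes, the likelihood ratio test called 3.09% higher and DESeq2 3.29%. The 12 and the 40 came from the fit lacking knockout-labelled replicate 2. That fit called 17.3% of all genes higher and 15.3% lower, so these counts are not read as a result about the 167. Over all genes the 11 higher calls were 85 without library scaling, 353 with DESeq2, 331 with the likelihood ratio test and 25 to 1851 with 1 library left out. The 0 lower calls were 2, 21 and 18 in the same order, and 1 to 1641. As alternatives chosen after seeing the data, the counts of genes whose groups do not overlap were 8 to 16 higher and 23 to 40 lower with 1 library left out, which has fewer values to overlap. With replicate 1 as the only knockout-labelled library, 40 of the 61 (65.6%) lay below both controls, against 44.1% of all genes. Above both lay 15 (24.6%), against 44.3%. Keeping replicate 2 instead gave 26 (42.6%) below and 12 (19.7%) above, against 35.3% and 34.7%. For the settings that drop a control, shares over all genes are not given. The ranges are therefore not read as a result about the 61. Among the genes named the log2 fold change turned sign without library scaling for Incenp (-0.0438) and Kif15 (-0.0217), and with 1 library left out for Cenpe (-0.35 to 0.21), Cenpi (-0.89 to 0.00231), Kif13b (-0.12 to 0.58), Kif15 (-0.0697 to 0.14), Ndc80 (-0.47 to 0.29), Cenpk (-0.11 to 0.24), Incenp (-0.0418 to 0.0734), Kif1c (-0.53 to 0.00568), Kifc1 (-0.0131 to 0.38) and Nuf2 (-0.23 to 0.10). The cause was not tested. Adar passed without knockout-labelled replicate 1 (1.06, edgeR adjusted p = 0.013). Removing library scaling moved the median of all genes to -0.07.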

Other observations

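Of 14 measured G1 cyclins and CDK inhibitors, none passed in edgeR's quasi-likelihood test. At an unadjusted p below 0.05 it gave 2 higher and 1 lower, where the shares of all genes were 9.82% and 2.08%. The median log2 fold change was -0.43, and 7 (50%) lay below both controls in both knockout-labelled libraries, against 26.7% of all genes. The 6 genes with Cdkn names did not share a direction. Those of p27 and p21 lay above both controls in both libraries: Cdkn1b, which encodes p27, had 298 and 193 CPM against 156 and 124 (0.81, SE 0.27), and Cdkn1a, which encodes p21, had 56.3 and 29.6 against 2.97 and 8.34 (2.91, SE 0.57, edgeR adjusted p = 0.208). The other 4, named after their values were seen, lay below: Cdkn2c had 11.1 and 32.4 against 59.5 and 32.7 (-1.08), Cdkn2d 8.09 and 18.0 against 34.0 and 19.7 (-1.04), Cdkn3 26.7 and 51.9 against 81.0 and 62.9 (-0.87) and Cdkn1c 1.79 and 1.74 against 3.08 and 2.15 (-0.56).

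Of 30 genes of S phase, none passed and none had an unadjusted p below 0.05 in edgeR. At that bound 9.82% of all genes were higher and 2.08% lower. The log2 fold change was below 0 for 28 (93.3%), with a median of -0.24. Knockout-labelled replicate 1 lay below both controls for 28 of the 30 (93.3%, against 44.1% of all genes), and replicate 2 for 13 (43.3%, against 35.3%). Gins1, a subunit of the replicative helicase, had 35.8 and 49.7 CPM against 59.3 and 54.1 (-0.41), and Gins2, another subunit, 30.5 and 35.9 against 41.5 and 43.8 (-0.36).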
